A study of Homo sapiens with 3 samples.

Results

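The 26S proteasome and its helpers were followed in NCI-H1650, a cell line long established from a human lung adenocarcinoma, after exposure to colossolactone H, a triterpenoid of the fungus Ganoderma colossum. Members were all probe sets whose platform annotation gives a single gene symbol that is POMP or begins with PSMA, PSMB, PSMC, PSMD, PSME, PSMF or PSMG. These were 99 of 54675 probe sets on the Affymetrix arrays, and they name 51 of 19775 genes. One array held cells exposed to 40 μM colossolactone H for 12 h, one held cells exposed to 40 μM for 24 h, and one held control cells, for which the labels give neither a collection time nor a vehicle. The groups share the line, the serum-supplemented medium and Trizol extraction, and treated dishes of 10 cm were seeded with 1000000 cells. With 1 array a group there is no spread between samples, so no difference has an error or a test and each is a statement about these 3 arrays alone.

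The proteasome is the cell's main protease for proteins tagged with ubiquitin. Its barrel-shaped 20S core is built of alpha rings, which gate the entrance, and beta rings, which hold the proteolytic sites, and the 19S cap recognises, unfolds and feeds in the substrate with a ring of ATPases. Interferon-treated and immune cells replace the catalytic beta subunits with immunoproteasome counterparts, and dedicated chaperones put the particle together. When proteasome activity falls short, the transcription factor NFE2L1 is known to raise many subunit genes together.

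Values are MAS5 signals on a linear scale, and a difference is the log2 signal of a treated array minus that of the control, unless another pair is named. A gene is represented by its brightest single-gene probe set, and 61.4, the 50th percentile over the 3 arrays, served as a floor under all signals. Of the 51 member genes 48 lay above the floor, all of them on each of the 3 arrays. The 3 at the floor were PSMA8, an alpha subunit of the testis, with raw signals of 6.5 at 12 h, 3.2 at 24 h and 8.3 in the control, and the divergent transcripts PSMD14-DT and PSMD7-DT. PSMA6 and PSME2 share their probe sets with another gene, and PSMC5, PSMD7 and PSMD13 have no probe set named for them alone, so these 5 subunits are not analysed here. The particle proper is thus covered by 27 of 31 core and cap subunits of the lists used, and by 42 of 47 subunits and helpers.

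The arrays were close in overall scale, with median signals of 60.6 at 12 h, 61.8 at 24 h and 61.7 in the control. As a measure of RNA integrity, the ratio of 3' to 5' signal for ACTB was 5.38 at 12 h and 6.55 at 24 h, against 4.95 in the control, while that of GAPDH was 1.251 and 1.237, against 1.205. Their part in the results was not tested. Of 6 epithelial markers all 6 were measured, with a summed signal of 64316 at 12 h and 65365 at 24 h, against 66305 in the control. Within that sum KRT19 was lower on both treated arrays, with differences of -0.54 and -0.60, and CLDN4 was higher, with 0.69 and 0.79. Of 5 lung lineage markers 3 were measured, and the lineage factors NKX2-1 and FOXA2 lay below the floor on each array. Of 4 leukocyte markers on the arrays 1 was measured, ITGAM, and it was above the floor in the control alone. PTPRC, CD3E and CD14 were below the floor on all 3 arrays, and the summed signal of the 4 was 124.0 at 12 h and 161.1 at 24 h, against 155.6 in the control. Of 5 fibroblast and endothelial markers 4 were measured. Their 5-gene sum was 1869 at 12 h and 1531 at 24 h, against 2220 in the control.

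The measured core and cap subunits caught by the prefix were higher on both treated arrays, and 2 of 3 immunoproteasome subunits were lower on both. Of all measured genes 48.4% were lower at 12 h and 49.9% at 24 h, and with 3 genes a count of 2 is near those shares. All 27 measured core and cap subunits were higher at 12 h, where 50.2% of 12351 measured genes were, and all 27 were higher at 24 h, where 48.8% of measured genes were. The 12 h count depended on the values used. It was 24 of 27 with quantile normalization, 21 of 27 as medians over probe sets, 17 of 20 with transcript-specific probe sets and 8 of 14 with the second brightest probe set, the last a share near that of all genes. At 24 h it was 27 of 27, 26 of 27, 18 of 20 and 12 of 14 in the same order. Their median difference was 0.12 at 12 h and 0.31 at 24 h, a 1.24-fold level at 24 h, beside medians of 0.00 and 0.00 over all measured genes. Over the alternatives the median ranged from 0.07 to 0.15 at 12 h and from 0.30 to 0.31 at 24 h. The shift is small for any one gene. No member differed by 2-fold at either time, beside 0.445% of measured genes higher and 0.437% lower by that much at 12 h, and 0.591% higher and 0.64% lower at 24 h. At 24 h 3 members, PSMD3, PSMD4 and PSMC4, were higher by 1.5-fold or more, beside 4.09% of measured genes. A lower threshold of 0.32 on the log2 scale was also counted. Past it 5 of 48 members were higher at 12 h, beside 12.5% of measured genes, and 14 of 48 at 24 h, beside 13.8%. Of these 14 members 13 are core or cap subunits. In RNA of whole cultures, a change in the RNA per cell and a change in the mix of cells cannot be told apart.

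**Figure D1:**
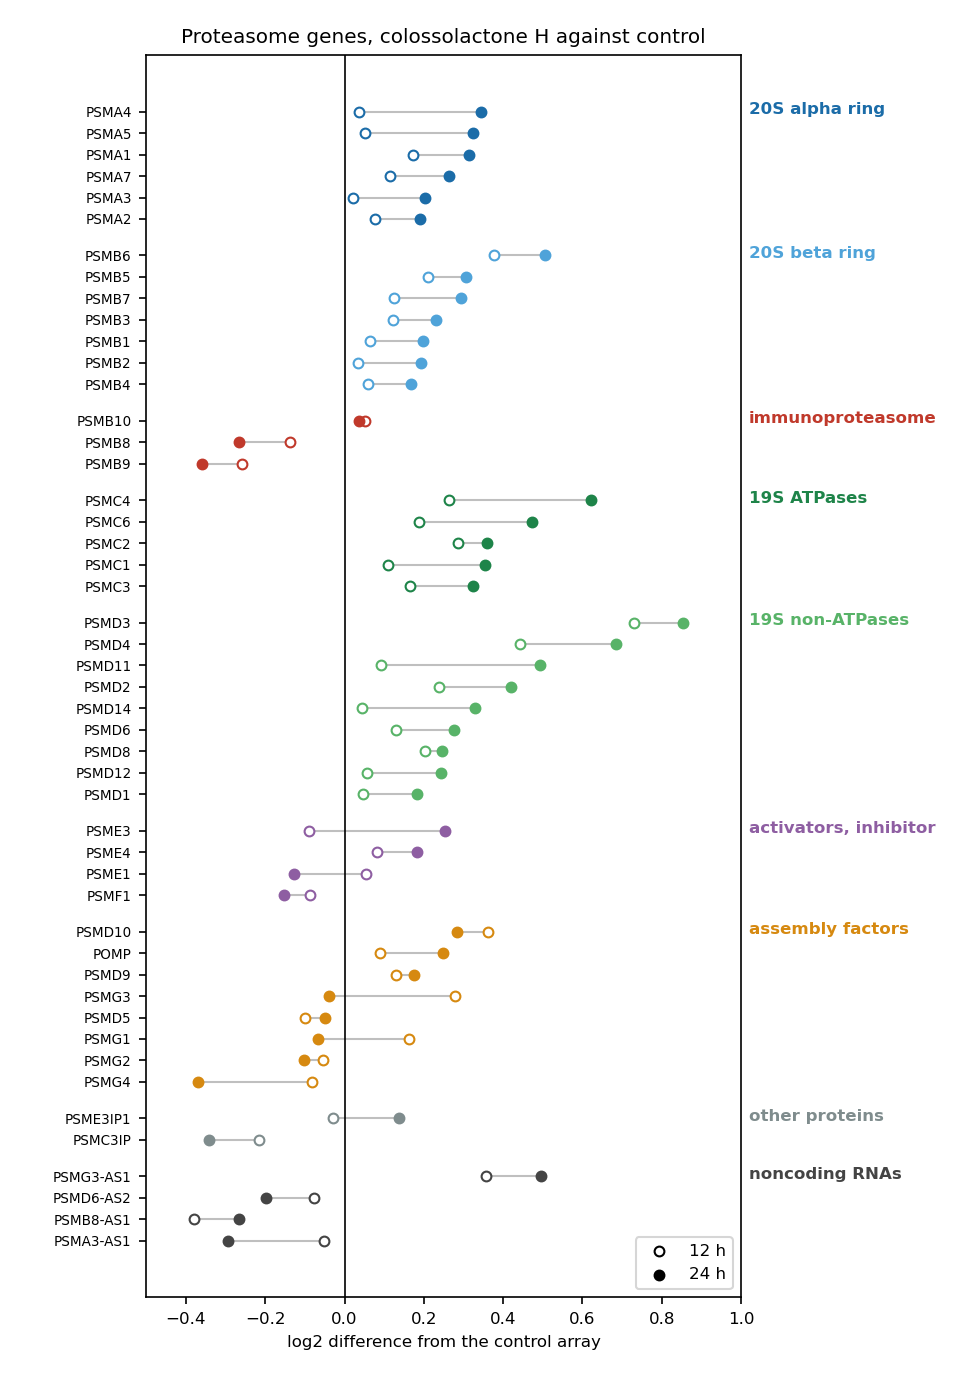
Log2 difference from the control array for each of the 48 measured member genes, grouped by role; open circles are 12 h and filled circles are 24 h, 1 array each. All 27 core and cap subunits lie right of 0 at both times, PSMB8 and PSMB9 lie left of it, and the assembly factors lie on both sides.

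By its brightest probe sets, the alpha ring of the core lay within a narrow band. Its 6 measured subunits were higher by 0.02 to 0.17 at 12 h and by 0.19 to 0.34 at 24 h. PSMA1 (Entrez gene 5682) had a signal of 8385 at 12 h and 9255 at 24 h, against 7445 in the control, differences of 0.17 and 0.31. PSMA4 (Entrez gene 5685) stood at 11527 at 12 h and 14274 at 24 h, against 11246 in the control, so that nearly all of its difference of 0.34 lay between 12 h and 24 h. PSMA3, with the smallest mean difference of the ring, had 8473 at 12 h and 9614 at 24 h, against 8352 in the control. PSMA2, PSMA5 and PSMA7 were at 0.19, 0.32 and 0.26 at 24 h. Second brightest probe sets lay outside the band. At 24 h that of PSMA1 was at 0.53, that of PSMA7 at 0.46 and the dim one of PSMA3 at 0.41. That of PSMA2 was at 0.155 at 24 h, and the dim one of PSMA5 at -0.15 at 12 h and 0.22 at 24 h.

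The beta ring holds the 3 proteolytic sites of the standard core. PSMB6 (Entrez gene 5694), the caspase-like site, had the largest difference of the core among brightest probe sets, with 9944 at 12 h and 10863 at 24 h, against 7654 in the control. That is 0.38 at 12 h and 0.51 at 24 h. PSMB5 (Entrez gene 5693), the chymotrypsin-like site that proteasome inhibitors used in the clinic mainly bind, had 4038 at 12 h and 4322 at 24 h, against 3492 in the control, or 0.21 and 0.31. PSMB7 (Entrez gene 5695), the trypsin-like site, had 10269 at 12 h and 11559 at 24 h, against 9424 in the control, or 0.12 and 0.29. A dim second probe set of PSMB7, with 220.1 at 12 h and 294.8 at 24 h, against 162.9 in the control, was at 0.43 and 0.86. The 4 beta subunits without a proteolytic site lay lower, between 0.17 for PSMB4 and 0.23 for PSMB3 at 24 h. PSMB2, with the smallest mean difference of the ring, had 10937 at 12 h and 12192 at 24 h, against 10673 in the control, and its transcript-specific probe set turned to -0.16 at 24 h.

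The immunoproteasome subunits were lower or close to the control. PSMB9 (Entrez gene 5698), which takes the place of PSMB6, had a signal of 1505 at 12 h and 1404 at 24 h, against 1800 in the control. Its differences were -0.26 and -0.36. PSMB8 (Entrez gene 5696), which takes the place of PSMB5, had 1642 at 12 h and 1503 at 24 h, against 1807 in the control, or -0.14 and -0.27. PSMB10 (Entrez gene 5699), which takes the place of PSMB7, had 1894 at 12 h and 1872 at 24 h, against 1826 in the control, or 0.05 and 0.04. None of the 3 exceeded any of the 27 core and cap subunits at 24 h, a description with no test. The lowest of the 27, PSMB4 at 0.17, itself lay above 72.9% of measured genes, so most measured genes share this position. PSMB9 was the 1 of the 3 that was lower by 0.32 or more at 24 h, beside 16.1% of measured genes. Leukocytes carry much of these subunits, and the values of their markers stand above.

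**Figure D2:**
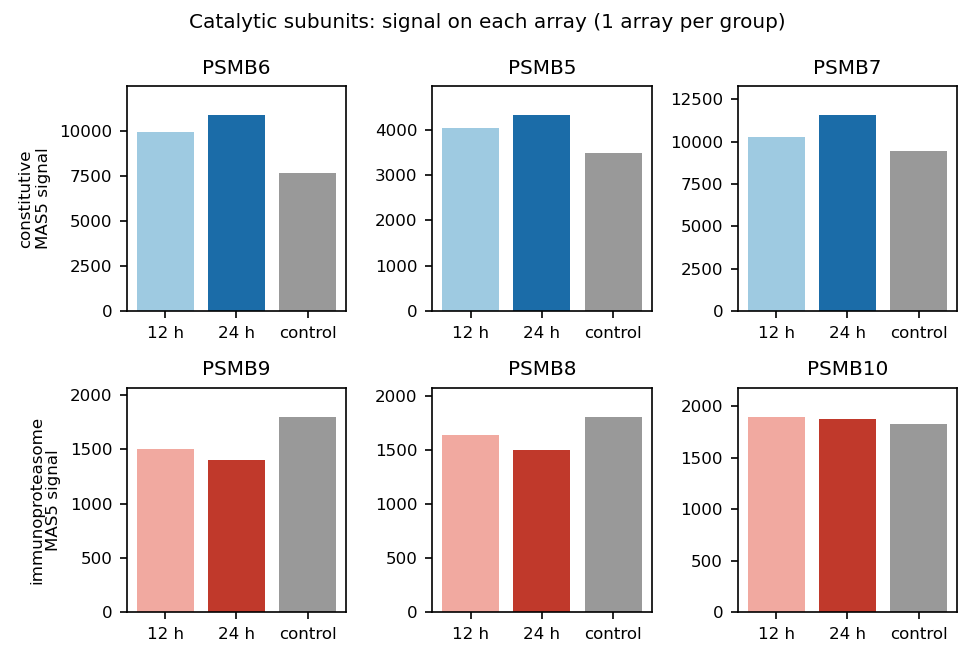
MAS5 signal of each constitutive catalytic subunit (top) above its immunoproteasome counterpart (bottom) on the 12 h, 24 h and control arrays, 1 array a bar, axes from 0. The constitutive bars are higher on both treated arrays, PSMB6 reaching 10863 at 24 h, against 7654 in the control, and PSMB8 and PSMB9 are lower on both.

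PSMB8 and PSMB9 lie next to the peptide transporter genes on chromosome 6, in the RefSeq order TAP2, PSMB8, PSMB8-AS1, TAP1, PSMB9. TAP2 was at -0.53 at 12 h and -0.39 at 24 h, although its second brightest probe set gave 0.17 at 12 h. PSMB8-AS1, an antisense RNA that overlaps PSMB8, was at -0.38 and -0.27. TAP1, which shares a bidirectional promoter with PSMB9, was at -0.18 at 12 h and 0.00 at 24 h, so the neighbours differed among themselves. Over a list of 9 antigen presentation genes, 8 of which were measured, 7 were lower at 12 h, beside 48.4% of measured genes, and 5 were lower at 24 h, near the 49.9% of measured genes, with medians of -0.20 and -0.18. IRF1, an interferon-induced factor that drives immunoproteasome genes, had 386.3 at 12 h and 389.1 at 24 h, against 475.7 in the control. TAPBP, which loads peptides onto class I molecules, was at -0.31 at 24 h, although its second brightest probe set was at 0.55.

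The ATPase ring of the cap pulls substrate into the core. All 5 measured subunits were higher by 0.32 or more at 24 h, beside 13.8% of measured genes, with differences of 0.33 to 0.62 and a median of 0.36. PSMC4 (Entrez gene 5704) had a signal of 3589 at 12 h and 4608 at 24 h, against 2993 in the control, or 0.26 and 0.62. PSMC6 (Entrez gene 5706) had 8063 at 12 h and 9829 at 24 h, against 7081 in the control, or 0.19 and 0.47. PSMC1, with the smallest mean difference of the ring, had 6143 at 12 h and 7279 at 24 h, against 5689 in the control. PSMC3 was at 0.33 at 24 h, just past the threshold, and PSMC2 at 0.36. The 2 dimmer probe sets of PSMC2 were at -0.05 and -0.23 at 12 h, and at 0.05 and -0.33 at 24 h. The count was 4 of 5 with cyclic loess and as medians over probe sets, 2 of 3 with transcript-specific probe sets and 0 of 1 with the second brightest probe set.

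The non-ATPase subunits of the cap, which bind ubiquitin chains, remove them and brace the particle, spread more widely, by 0.18 to 0.85 at 24 h. PSMD3 (Entrez gene 5709), a scaffold subunit of the lid, had the largest difference of all members. Its signal was 1779 at 12 h and 1938 at 24 h, against 1072 in the control, which is 0.73 and 0.85. PSMD3 lay at the 98.8th percentile of measured genes at 24 h and rests on 1 probe set. PSMD4 (Entrez gene 5710), a receptor for ubiquitin chains, had 7670 at 12 h and 9063 at 24 h, against 5640 in the control, or 0.44 and 0.68. Its other 2 bright probe sets were both at 0.47 at 24 h.

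PSMD2, a large scaffold that docks ubiquitin-like proteins, was at 0.24 at 12 h and 0.42 at 24 h. PSMD14, the metalloprotease that cuts ubiquitin off the substrate, was at 0.04 and 0.33. PSMD11, which clamps the lid to the core, was at 0.09 at 12 h and 0.49 at 24 h. Its dimmer probe set pointed the other way, with 257.8 at 12 h and 264 at 24 h, against 396.3 in the control. PSMD1, a large scaffold and the one with the smallest mean difference, had 5516 at 12 h and 6071 at 24 h, against 5345 in the control. Its second brightest probe set was at -0.22 at 12 h and 0.51 at 24 h. PSMD6, PSMD8 and PSMD12, further lid subunits, were at 0.28, 0.25 and 0.24 at 24 h, and the second brightest probe set of PSMD12 was at -0.23.

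In each of the 27 core and cap subunits the 12 h signal was above the control and the 24 h signal was above the 12 h signal, an order found in 21.1% of measured genes. It held for 24 of 27 with quantile normalization, 21 of 27 as medians over probe sets, 17 of 20 with transcript-specific probe sets and 8 of 14 with the second brightest probe set. The 24 h against 12 h differences, which do not use the control array, were 0.04 to 0.40 with a median of 0.16, and 27 of 27 were above 0, beside 46.3% of measured genes. Past 0.32 on this comparison 3 of 48 members were higher, beside 6.76% of measured genes. For 17 subunits the step after 12 h was the larger one, and for 10 the step before it was, among them PSMD3, PSMD4, PSMB6 and PSMC2. The same count over all measured genes was not made, so this split cannot be set against a share. Both steps share the 12 h array.

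**Figure D3:**
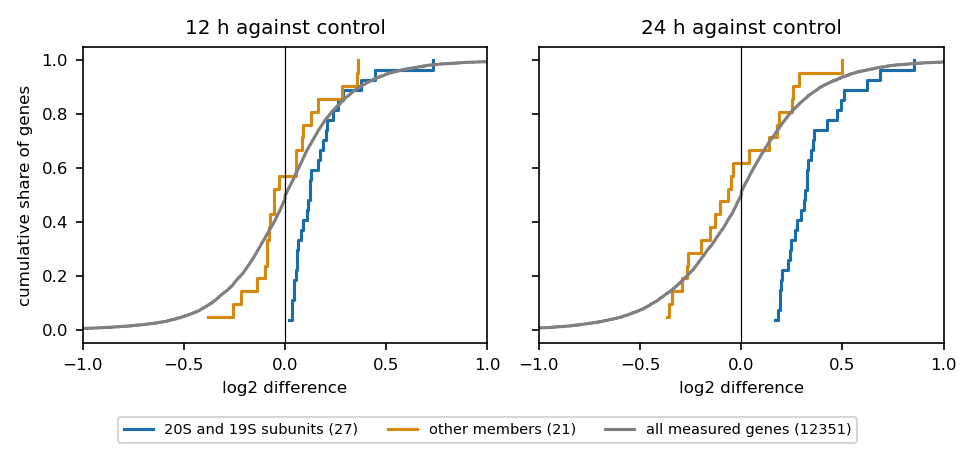
Cumulative share of genes against log2 difference at 12 h (left) and 24 h (right) for the 27 core and cap subunits, the 21 other measured members and all 12351 measured genes. The core and cap curve lies wholly right of 0 in both panels, while the curve of the other members stays near that of all genes.

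The proteins that open or block the core lay on both sides of the control. PSME1, an alpha subunit of the interferon-induced activator PA28, had 2158 at 12 h and 1903 at 24 h, against 2079 in the control, or 0.05 and -0.13. PSME3, which forms the nuclear activator, had 1013 at 12 h and 1284 at 24 h, against 1077 in the control, or -0.09 and 0.25. Its 4 probe sets ranged from -0.24 to 0.35 at 24 h. PSME4, an activator tied to histone breakdown, had 2109 at 12 h and 2262 at 24 h, against 1991 in the control, or 0.08 and 0.18. Its 3 probe sets ranged from -0.84 to 0.08 at 12 h and from 0.06 to 0.19 at 24 h. PSMF1, named an inhibitor of the core from its behaviour in vitro, had 2659 at 12 h and 2540 at 24 h, against 2824 in the control, or -0.09 and -0.15. Its 4 probe sets ranged from -0.52 to 0.11 at 12 h and from -0.26 to 0.07 at 24 h. As a group the 4 had a median of -0.02 at 12 h and 0.03 at 24 h.

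Of 8 assembly factors 5 were higher at 12 h and 3 at 24 h, near the 50.2% and 48.8% of measured genes. Their medians were 0.11 and -0.04, and the first was 0.0044 as medians over probe sets, the second 0.16 with the second brightest probe set. POMP (Entrez gene 51371), the chaperone that builds beta subunits onto the alpha ring, had 7881 at 12 h and 8807 at 24 h, against 7411 in the control, or 0.09 and 0.25. POMP thus lay among the core subunits, and its second probe set was at 0.16 at 24 h. The PSMG proteins chaperone the alpha ring as the pairs PSMG1 with PSMG2 and PSMG3 with PSMG4. All 4 were below the control at 24 h, beside 49.9% of measured genes, at -0.07, -0.10, -0.04 and -0.37 from PSMG1 to PSMG4. Only PSMG4 was lower by 0.32 or more, beside 16.1% of measured genes. At 12 h PSMG1 and PSMG3 were above the control, at 0.16 and 0.28. PSMG4 had 1670 at 12 h and 1368 at 24 h, against 1767 in the control, and its dimmer probe set near the floor gave 0.16 at 24 h.

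The chaperones of the ATPase ring lay on both sides of the control. PSMD10, also known as the oncoprotein gankyrin, had 7761 at 12 h and 7343 at 24 h, against 6035 in the control, or 0.36 and 0.28, and its second probe set gave 0.23 and 0.18. PSMD9 was at 0.13 and 0.18, and its second brightest probe set at -0.51 and -0.20. PSMD5, which binds the ATPase PSMC2, was at -0.10 and -0.05.

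Some symbols caught by the prefix name no part of the particle. PSMC3IP, a cofactor of meiotic and homologous recombination, had 751.5 at 12 h and 688.8 at 24 h, against 873.2 in the control, or -0.22 and -0.34. PSME3IP1, a partner of PSME3, was at -0.03 and 0.14, and its second brightest probe set at -0.09 at 24 h. Among antisense RNAs, PSMA3-AS1 was at -0.29 at 24 h while PSMA3, which it overlaps, was at 0.20. The second brightest probe set of PSMA3-AS1 was at -0.0091 at 24 h. PSMD6-AS2 was at -0.20 at 24 h while PSMD6, which it overlaps, was at 0.28. The second brightest probe set of PSMD6-AS2 gave 0.22, but it was above the floor at 24 h alone, with a signal of 71.3. PSMG3-AS1, which lies beside PSMG3 without overlap, was at 0.36 at 12 h and 0.50 at 24 h, from a dim signal of 138.2 at 12 h and 152.2 at 24 h, against 107.9 in the control.

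Member probe sets were also counted by their brightness. Among core and cap probe sets with a control signal of at least 1000, 36 of 38 were higher at 12 h and 36 of 38 at 24 h. The 38 include the 27 brightest probe sets already counted above, all of them higher at both times. Counted by gene, 52.2% of measured genes with a mean signal of at least 1000 were higher at 12 h and 51.0% at 24 h. Among core and cap probe sets under 1000 that were above the floor on each array, 2 of 8 were higher at 12 h and 5 of 8 at 24 h. The share over all such dim probe sets of the arrays was not counted. At 12 h the 2 bright exceptions were 1 probe set each of PSMD1 at -0.22 and of PSMD12 at -0.37. At 24 h they were 1 probe set each of PSMB4 at -0.11 and of PSMD12 at -0.23. Of 14 core and cap genes with 2 or more probe sets above the floor on each array, all lay on the same side of 0 for 8 at 12 h and for 9 at 24 h. The same count over all genes was not made, so these cannot be set against a share.

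**Figure D4:**
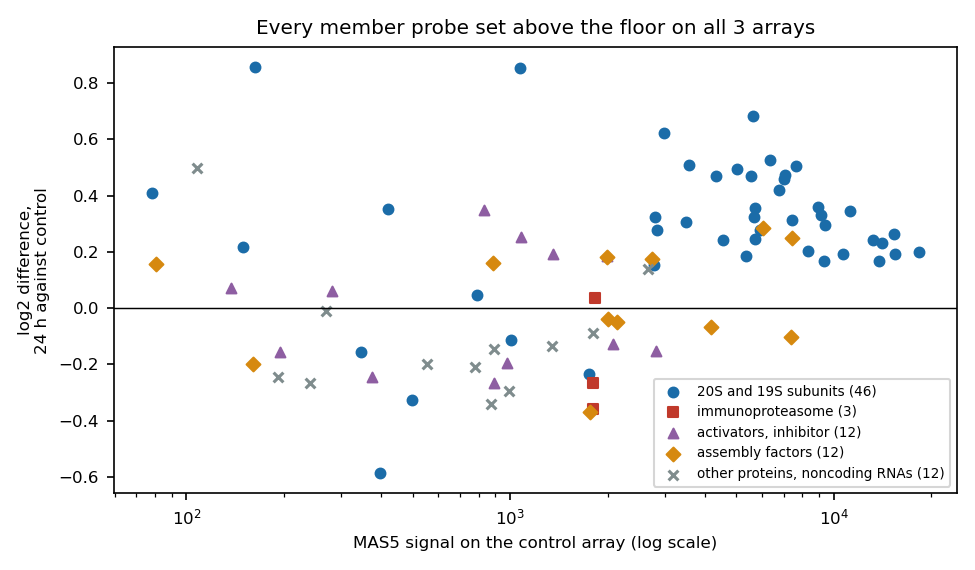
Log2 difference at 24 h against the control signal (log scale) for the 85 member probe sets above the floor on all 3 arrays, by role. Bright core and cap probe sets gather above 0, 36 of the 38 with a control signal of at least 1000. The 38 include the 27 that represent their genes. Dimmer probe sets scatter to both sides.

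Genes that set proteasome levels or work beside the particle were read from lists outside the prefix rule. Of 17 measured regulators and partners 11 were higher at 12 h and 13 at 24 h, beside 50.2% and 48.8% of measured genes, with medians of 0.15 and 0.23. By 0.32 or more 6 of 17 were higher at 24 h, beside 13.8% of measured genes. NFE2L1, the factor named above, had a signal of 4646 at 12 h and 5642 at 24 h, against 3678 in the control, or 0.34 and 0.62. ZFAND2A, a stress-induced protein that binds the proteasome, had 4174 at 12 h and 5340 at 24 h, against 3352 in the control, or 0.32 and 0.67. ECPAS, an adaptor of the 26S particle, was at 0.32 and 0.41. NGLY1, the glycanase that helps activate NFE2L1, and MAFG, a small partner protein of that factor family, were at 0.35 and 0.43 at 24 h, and were named after their values were seen. Other transcription factors of the list were at 0.12 for NFE2L2, 0.24 for MAFF, 0.05 for BACH1 and -0.17 for HSF1 at 24 h. Cap subunits outside the prefix differed. SEM1, a small lid subunit, was at 0.29 and 0.22, and ADRM1, a ubiquitin receptor of the cap, was at -0.10 and -0.05.

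Of 13 measured genes of ubiquitin supply and delivery, 8 were higher at 12 h and 7 at 24 h, near the 50.2% and 48.8% of measured genes, with medians of 0.08 and 0.09. SQSTM1, a ubiquitin-binding autophagy receptor, led with 2460 at 12 h and 3274 at 24 h, against 1795 in the control, or 0.45 and 0.87. VCP, the segregase that extracts ubiquitinated proteins, had 5713 at 12 h and 6544 at 24 h, against 4630 in the control, or 0.30 and 0.50. Its cofactor UFD1 was at 0.11 and 0.40. These 3 were the ones higher by 0.32 or more at 24 h, beside 13.8% of measured genes.

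**Figure D5:**
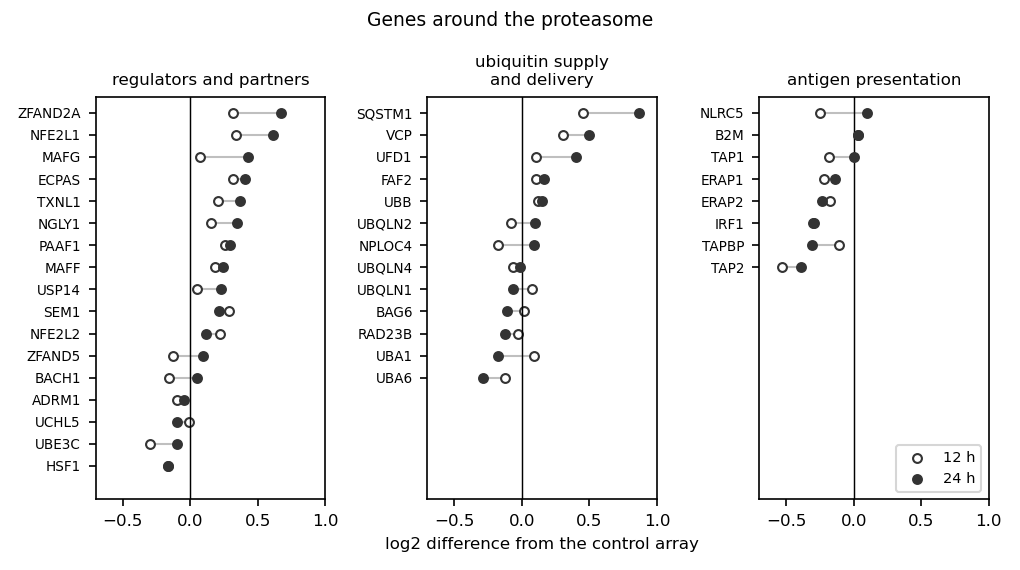
Log2 difference from the control array for measured genes of 3 lists outside the prefix rule; open circles are 12 h and filled circles are 24 h, 1 array each. ZFAND2A and NFE2L1 lead the left panel at 0.67 and 0.62 at 24 h, SQSTM1 the middle one at 0.87, and TAP2 is lowest on the right at -0.39.

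Because core and cap subunits were higher together, their promoters were searched on both strands for 3 short motifs in RefSeq windows of 250 bases before to 50 bases after each start (GRCh38.p14). The motifs were the antioxidant response element core TGACNNNGC, which NFE2L1 and related factors bind, the CCAAT box, and a pattern read by interferon regulatory factors, the letters GAAA repeated once after a gap of 2 bases. Windows of 22 of the 27 core and cap genes were searched, and PSMA7, PSMB1, PSMB6, PSMB7 and PSMD4 had none in the table used. TGACNNNGC was found in 6 of their 26 windows, 23.1%, beside 13.3% of 35116 windows of all genes. CCAAT was found in 13 of 26, beside 34.6% of all windows. The genes with TGACNNNGC were PSMA4, PSMB3, PSMC4, PSMD1, PSMD3 and PSMD12, whose 24 h differences run from 0.18 to 0.85. The letters were also in 1 of 4 immunoproteasome windows and 2 of 5 activator and inhibitor windows, so their share was not highest in core and cap. Of 8 assembly factor windows 4 held TGACNNNGC, those of PSMD5, PSMD9, PSMG1 and PSMG2, whose 24 h differences were -0.05, 0.18, -0.07 and -0.10. The interferon pattern was found in 2 of 4 immunoproteasome windows, 2 of 26 core and cap windows, 1 of 5 activator and inhibitor windows and 1 of 8 assembly factor windows, beside 3.57% of all windows.

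The windows below are the 2 cap genes with TGACNNNGC and the largest 24 h differences, then PSMB9, which holds the same letters and was lower, and PSMB10, which holds the interferon pattern. Capitals mark TGACNNNGC on either strand in the first 3 windows and the interferon pattern in the last. In PSMD3 the matches begin at -37 and 33 relative to the start site, in PSMC4 at 27, in PSMB9 at -148 and in PSMB10 at -21. A match is a run of letters and no evidence of binding.
PSMD3, chr17:39980557-39980856, plus strand: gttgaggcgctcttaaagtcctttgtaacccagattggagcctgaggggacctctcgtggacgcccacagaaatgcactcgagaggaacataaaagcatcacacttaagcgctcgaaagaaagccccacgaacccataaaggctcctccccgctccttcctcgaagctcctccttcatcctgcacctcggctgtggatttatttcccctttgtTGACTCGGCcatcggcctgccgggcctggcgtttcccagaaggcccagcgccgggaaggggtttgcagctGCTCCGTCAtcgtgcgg
PSMC4, chr19:39970915-39971214, plus strand: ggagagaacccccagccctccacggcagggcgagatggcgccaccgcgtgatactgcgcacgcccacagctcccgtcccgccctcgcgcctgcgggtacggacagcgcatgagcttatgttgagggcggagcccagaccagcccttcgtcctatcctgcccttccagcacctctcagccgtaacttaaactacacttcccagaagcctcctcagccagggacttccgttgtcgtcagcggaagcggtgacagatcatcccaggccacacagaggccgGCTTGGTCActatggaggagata
PSMB9, chr6:32853942-32854241, plus strand: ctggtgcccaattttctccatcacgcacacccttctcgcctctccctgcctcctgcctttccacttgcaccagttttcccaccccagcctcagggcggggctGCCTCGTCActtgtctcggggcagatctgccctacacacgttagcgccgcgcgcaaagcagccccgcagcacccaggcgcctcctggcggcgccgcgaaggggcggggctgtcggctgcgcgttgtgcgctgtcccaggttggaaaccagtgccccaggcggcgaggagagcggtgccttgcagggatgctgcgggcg
PSMB10, chr16:67936801-67937100, minus strand: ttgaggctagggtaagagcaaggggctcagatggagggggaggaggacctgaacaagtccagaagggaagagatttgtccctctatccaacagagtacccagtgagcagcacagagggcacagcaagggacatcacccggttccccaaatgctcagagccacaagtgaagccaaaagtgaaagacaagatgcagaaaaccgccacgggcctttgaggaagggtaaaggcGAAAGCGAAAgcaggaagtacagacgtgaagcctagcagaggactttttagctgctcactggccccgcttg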

How the data were processed

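Total RNA of 1 control and 2 treated NCI-H1650 cultures was measured on 3 Affymetrix arrays, with cRNA made from 6 μg of RNA. The deposited values are linear signal intensity, which the authors computed; the submitters' processing notes name MAS5, whose version and settings are not given in the sources used here. With 2% trimmed at either end, each array averaged 500.1, so the main values were left unscaled. The platform annotation named 1 gene for 41097 probe sets, several for 1801 and none for 11777, and 51 of 51 member gene IDs matched RefSeq. A gene took its brightest single-gene probe set, array control probe sets aside. The floor was 61.4 and 12351 genes exceeded it on at least 1 array. Differences are log2 of a pair of arrays, counted at 2-fold, at 1.5-fold, at 0.32 on the log2 scale and at any size, beside the same counts over all measured genes. The intensity of a probe set was not compared with that of another, and precision is limited by the number of arrays.

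All members may be named. Signals on the 3 arrays are given for the catalytic subunits and their counterparts, POMP, the activators, PSMF1, and in each class the 2 genes with the largest and the 1 with the smallest mean difference. From each list outside the rule the 3 genes with the largest mean absolute difference are named, with NFE2L1, SEM1 and ADRM1. Further signals and genes were added after the values were seen. Members, classes and lists were chosen with earlier results of these data known. The procedure was tested on simulated data with planted changes of 2-fold or more in genes well above the floor. No member differed by 2-fold, so that test does not cover shifts of the size reported here. Alternatives covered scaling, floor and probe set choice. Quantile normalization and cyclic loess used limma 3.58.1 in R 4.3.3, and the rest Python 3.11.15 with numpy 2.4.6 and pandas 2.3.3.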

Additional observations from a re-analysis of the deposited data

Results flagged for a closer look

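For 5 of 48 measured members the 12 h and 24 h arrays lay on opposite sides of the control, a difference that was not tested and rests on 1 array each. The same count over all measured genes was not made, so the 5 cannot be set against a share. The 24 h against 12 h difference was -0.32 for PSMG3, with signals of 1950 at 24 h and 2433 at 12 h, and -0.23 for PSMG1, with 3976 at 24 h and 4663 at 12 h. It was 0.34 for PSME3, -0.18 for PSME1 and 0.17 for PSME3IP1. For PSME3 and PSME3IP1 the side depended on the probe set. Of 4 PSME3IP1 probe sets 4 were below the control at 12 h and 3 at 24 h. Of 4 PSME3 probe sets 3 were below the control at 12 h and 2 at 24 h.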

How the results depend on the processing

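No paired analysis was possible because each group holds 1 array. Of 237 medians and counts under the 10 alternatives, 217 stayed close to their value (medians within 0.1, counts within 1.5 times), including all 72 under the 3 scalings. That tolerance is wider than some 12 h medians: over all members 0.08 became 0.00 with the second brightest probe set, and over the core 0.078 became 0.037 with quantile normalization. The rest came from the choice of probe set. With the second brightest probe set, which left 14 core and cap genes, the cap median (5 genes) turned to -0.22 at 12 h and was 0.047 at 24 h. The assembly median was 0.16 at 24 h and turned to 0.038 for 24 h against 12 h, and the activator median was -0.19 at 24 h and -0.10 for 24 h against 12 h. The core median for 24 h against 12 h was 0.25. Members higher by 0.32 or more (log2) then numbered 2 at 12 h, 7 at 24 h and 5 for 24 h against 12 h, and core and cap genes 7 at 24 h and 5 for 24 h against 12 h. With transcript-specific probe sets the immunoproteasome median was -0.16 and the activator median -0.13 at 24 h, and the counts were 2 at 12 h, 8 at 24 h, and for core and cap genes 8 at 24 h and 1 for 24 h against 12 h. As medians over probe sets the assembly median was 0.0044 and the count 3 at 12 h. Main counts for members were 5, 14 and 3, and for core and cap genes 13 at 24 h and 2 for 24 h against 12 h. At least 1 alternative turned the sign of 12 members at 12 h (8 of them core or cap), 8 at 24 h (3 core or cap) and 6 for 24 h against 12 h (1 core or cap). Among genes at 0.32 or more in either direction, PSMD11 at 24 h turned to -0.046 as the median over probe sets and to -0.59 with either narrower choice, PSMG4 at 24 h to 0.16 with either, and with the second brightest probe set PSME3 for 24 h against 12 h turned to -0.10, TAP2 at 12 h to 0.17 and SFTPB at 12 h to 0.044. Fewer genes entered with narrower choices, and beyond that the cause was not tested.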
